A study of Homo sapiens with 10 samples.

Results

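Checkpoint and nectin-binding receptors are surface proteins that raise or lower the response of natural killer (NK) and T cells when they meet a ligand on another cell. The 10 genes described here, TIGIT, CD96, CD226, LAG3, HAVCR2, PDCD1, CTLA4, LAIR1, LILRB1 and CD160, were chosen by symbol from the 54628 symbols of the count table, and all 10 were found. The cells were NK-92, an established line from a human NK cell lymphoma, and their RNA was measured as 10 libraries in 5 groups of 2. The groups were untreated cells (0 h), cells given 500 µM DFO (deferoxamine, a small molecule that binds iron) for 6 h or 24 h, and cells given 10 µg/mL PPMX-T003 (T003, an antibody that binds transferrin receptor 1) for 6 h or 24 h. Every group, untreated cells included, was grown with 2% human serum (Artemis Medium-1), and none carried a genetic change named in the labels. All untreated cells were taken at 0 h, so treatment and time in culture cannot be told apart in a comparison with them. NK-92 is a single tumour line, and no label says that the 2 libraries of a group came from separate cultures.

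TIGIT, CD96 and CD226 form a competing set: they bind nectin and nectin-like proteins, above all PVR (CD155), and TIGIT and CD96 are mostly described as inhibitory while CD226 is activating. LAG3, HAVCR2, PDCD1 and CTLA4 are the inhibitory receptors targeted or studied in cancer immunotherapy, and rise on persistently stimulated lymphocytes. LILRB1 and LAIR1 carry inhibitory motifs in their cytoplasmic tails and recognise class I MHC molecules and collagens, while CD160 binds TNFRSF14 (HVEM) and class I MHC molecules.

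The libraries held between 107117892 and 143575614 estimated counts. Levels are given as CPM, the count scaled to library size, with TMM factors that correct for composition. The labelled NK identity was checked against 10 NK cell markers, all of which passed the filter on low counts. Their summed level was 1964 to 2104 CPM over the libraries. Levels of the single markers were uneven, with means per kilobase of transcript from 0.182 CPM for FCGR3A and 1.90 for CD7 to 1110 for NKG7. Among 8 T cell markers, CD3E and TRAC passed the filter, CD3G and CD8B were at 0 in every library, and the summed level was 436 to 482 CPM. Per kilobase of transcript, CD3E had a mean of 318 CPM, and CD3D, CD4, CD5 and CD8A were at 0.0331 or less. Differences were tested with edgeR's quasi-likelihood test on all 20125 genes that passed the filter, and a gene was called when its Benjamini-Hochberg adjusted p over those genes was under 0.05. Of the receptors 8 passed the filter. PDCD1 and LAIR1 did not.

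The transcripts covered a wide range of levels. Per kilobase of the reference (MANE Select) transcript, the mean over all libraries was 65.9 CPM for CD96, 35.4 for CD160, 20.4 for LILRB1 and 14.7 for TIGIT. It was 4.12 CPM per kilobase for HAVCR2, 3.56 for LAG3, 0.241 for CTLA4 and 0.154 for CD226. The inhibitory nectin receptors therefore stood far above the activating CD226 on this scale. Neighbours in this order were separated in untreated cells except HAVCR2 and LAG3, at 3.90 and 3.81 CPM per kilobase, whose libraries overlapped. Without division by transcript length CD226 lay above CTLA4, with means over all libraries of 1.93 and 0.480 CPM. PDCD1, the gene of the receptor PD-1, had 0 counts in 9 libraries and 3 counts in untreated replicate 2. LAIR1 had 5 counts in T003 6 h replicate 2, 2 in DFO 24 h replicate 1 and 4 in T003 24 h replicate 1, and 0 in the others. A floor of 3 counts, set by convention, corresponds to 0.0209 to 0.0278 CPM in these libraries and covers counting error only. Levels below it are uncertain at this depth, and the 2 LAIR1 counts in DFO 24 h replicate 1, at 0.0162 CPM, lay below it.

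**Figure D1:**
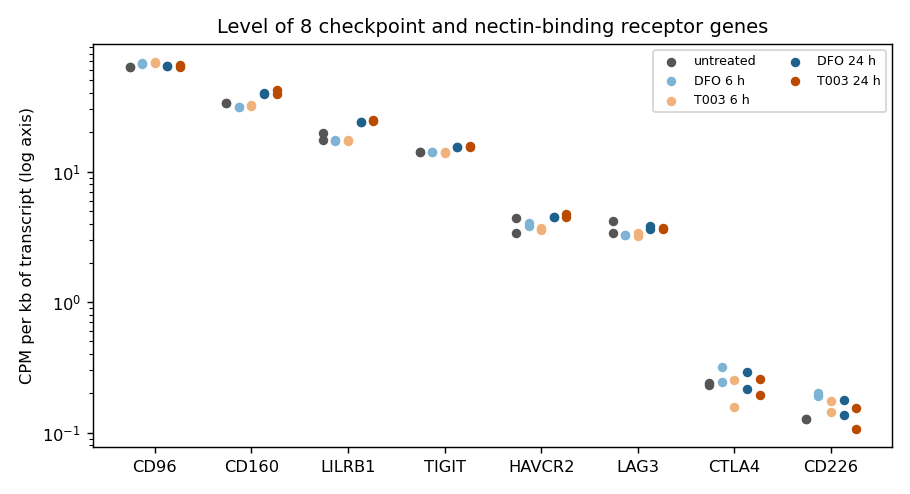
Level of the 8 receptor genes that passed the filter, as CPM per kilobase of transcript on a log axis, with 1 point per library and colours for the 5 groups. CD96 lies highest, CD226 and CTLA4 lie lowest, and the points of HAVCR2 and LAG3 lie close together.

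At 6 h none of the 8 tested receptors was called with either agent, and at 24 h LILRB1 and CD160 rose with both agents, TIGIT rose with T003, and none fell. With DFO at 6 h 0 of 8 were called, against 0.0248% of all tested genes, while 4 of the 8 had an unadjusted p under 0.05, against 12.4% of all genes. With T003 at 6 h 0 of 8 were called, against 0.0298% of all genes, and 1 had an unadjusted p under 0.05, against 7.53% of all genes. With DFO at 24 h 2 of 8 were called higher and 0 lower, against 3.43% and 3.27% of all genes. With T003 at 24 h 3 of 8 were called higher and 0 lower, against 7.1% and 5.44% of all genes. The median log2 change of the 8 was 0.16 with DFO and 0.095 with T003 at 24 h, where the median of all genes was -0.0023 and -0.0069. The comparisons with untreated cells share the same 2 untreated libraries. In bulk RNA, fewer cells that express a gene and less RNA per cell cannot be told apart.

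**Figure D2:**
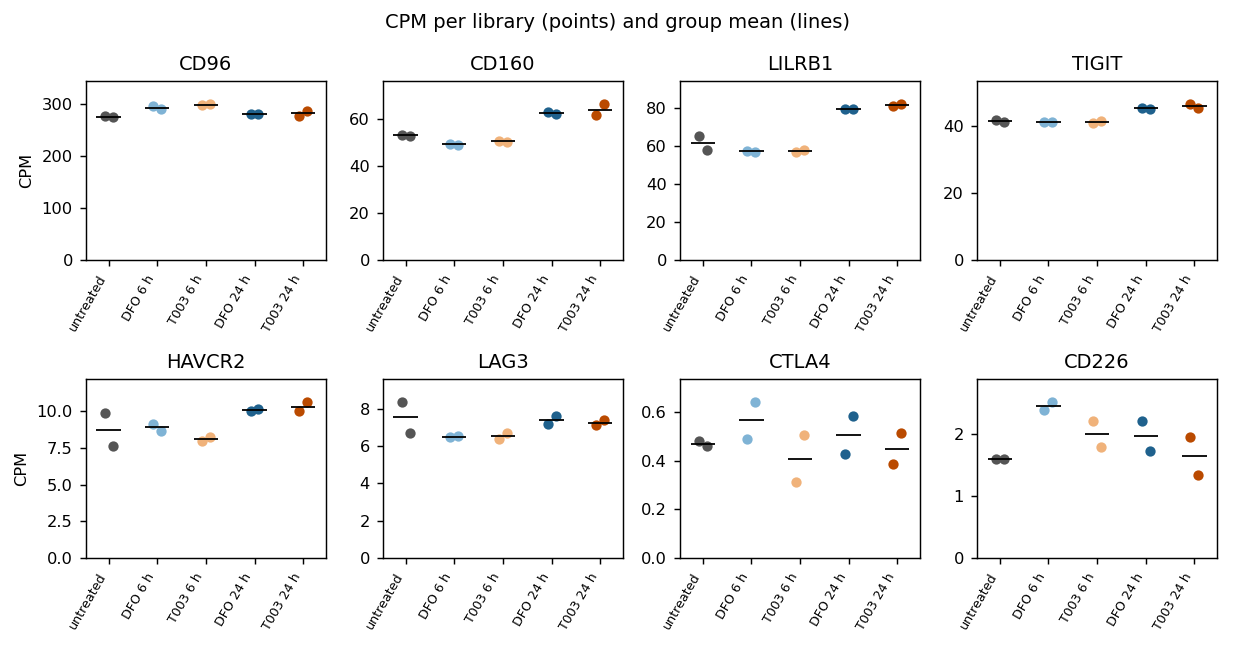
TMM-scaled CPM of the 8 tested receptor genes, with 1 panel per gene, 1 point per library and a line at the mean of the 2 libraries of each group. In LILRB1 and CD160 all 4 libraries at 24 h lie above the other 6, and in CTLA4 the libraries of most groups overlap. In CD226 the DFO 6 h pair lies above all others, and among the treated groups only the T003 24 h pair overlaps the untreated pair.

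LILRB1, an inhibitory receptor for classical and non-classical class I MHC molecules, had the largest called change among the receptors. It lies on chromosome 19 (chr19:54616322-54638022, GRCh38, plus strand) within the leukocyte receptor complex. Its level was 65.2 and 57.7 CPM in the untreated libraries, 57.3 and 57.2 after 6 h of DFO, and 57.0 and 58.0 after 6 h of T003. The 24 h libraries were at 79.4 and 79.6 CPM with DFO and at 81.0 and 81.9 with T003. All 4 libraries at 24 h lay above all 6 others, and the 2 untreated libraries were the widest apart of any pair. What share of all tested genes separated in this way was not counted, for LILRB1 or for the genes described below.

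LILRB1 was 29.2% higher after 24 h of DFO than in untreated cells (log2 change 0.37, SE 0.046, 95% interval 0.27 to 0.47, adjusted p = 0.000812). With T003 it was 32.4% higher (log2 change 0.41, SE 0.046, 95% interval 0.30 to 0.51, adjusted p = 0.000279). The calls held when any 1 library was left out, with log2 changes of 0.29 to 0.46 for DFO and 0.32 to 0.49 for T003. At 6 h the log2 change was -0.10 with both agents, with adjusted p of 0.393 for DFO and 0.681 for T003. Those 6 h values moved with the untreated library: they were -0.01 and -0.00047 without untreated replicate 1, and -0.19 and -0.18 without untreated replicate 2, and were called in neither case. LILRB1 held 85.8% to 91.1% of the counts of the 13 LILR genes in the table, a family of related genes among which reads can be split. How far reads were split was not measured, so its value may be less certain than that of a single-copy gene.

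CD160, a small lipid-anchored receptor of NK cells and cytotoxic T cells, moved in the same way. It lies at chr1:145719499-145739288 (GRCh38, plus strand). Its level was 53.5 and 52.7 CPM in untreated cells, 49.4 and 49.2 after 6 h of DFO, and 50.8 and 50.4 after 6 h of T003. By 24 h it had reached 63.2 and 62.4 CPM with DFO and 61.8 and 66.2 with T003. Again the 4 libraries at 24 h stood above the rest without overlap. The rise at 24 h was 18.3% with DFO (log2 change 0.24, SE 0.036, adjusted p = 0.00235) and 20.6% with T003 (log2 change 0.27, SE 0.036, adjusted p = 0.000761). At 6 h the log2 change was -0.11 with DFO (adjusted p = 0.274) and -0.07 with T003 (adjusted p = 0.710). CD160 overlaps RNF115 on the opposite strand, and whether the counting used strand is not given. RNF115 had group means of 99.4 to 102 CPM and was called in none of the comparisons.

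The stretches before the start sites of the 2 receptors that rose with both agents are shown for comparison, each 250 bases ending at the base before a RefSeq start (GRCh38.p14), 5′ to 3′ on the plus strand, with capitals at any match to 8 motifs searched on both strands. For LILRB1 the first window belongs to the upstream start and the second to a start further inside the gene.
LILRB1 chr19:54616879-54617128: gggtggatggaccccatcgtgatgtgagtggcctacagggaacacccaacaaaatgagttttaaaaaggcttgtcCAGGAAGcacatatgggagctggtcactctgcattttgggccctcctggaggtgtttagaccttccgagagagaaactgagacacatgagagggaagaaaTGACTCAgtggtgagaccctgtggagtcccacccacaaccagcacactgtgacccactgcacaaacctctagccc
LILRB1 chr19:54630234-54630483: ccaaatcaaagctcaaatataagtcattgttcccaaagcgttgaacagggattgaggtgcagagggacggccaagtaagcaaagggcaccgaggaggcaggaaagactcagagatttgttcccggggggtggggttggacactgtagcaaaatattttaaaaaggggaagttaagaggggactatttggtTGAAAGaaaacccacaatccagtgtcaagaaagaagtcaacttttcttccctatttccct
CD160 chr1:145719249-145719498: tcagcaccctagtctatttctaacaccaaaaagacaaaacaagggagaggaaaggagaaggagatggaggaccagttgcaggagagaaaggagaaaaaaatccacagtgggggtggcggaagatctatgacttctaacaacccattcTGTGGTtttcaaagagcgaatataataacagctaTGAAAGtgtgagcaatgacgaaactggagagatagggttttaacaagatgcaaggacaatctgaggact
The motifs, with the share of 35116 such windows of RefSeq genes that hold each, were GGTGTG for T-box factors (14.2%), TGTGGT for RUNX (11%), CAGGAAG for ETS (10.5%) and TGANTCA for AP-1 (6.57%). The others were TTCNNNGAA for STAT (6.57%), TGGAAA for NFAT (18%), TGAAAG for PRDM1 (13.5%) and ACGTG, the core of the hypoxia response element (18.5%). The upstream LILRB1 window held an ETS match starting 175 bases and an AP-1 match 75 bases before the start. The inner LILRB1 window held a PRDM1 match at 60 bases, and the CD160 window a RUNX match at 103 and a PRDM1 match at 69 bases. A PRDM1 match also lay 85 bases before a start of CD226, whose windows are not printed and which was called in no comparison. A match is a run of letters and no evidence of binding.

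TIGIT, the inhibitory receptor with high affinity for PVR, lies at chr3:114294028-114310288 (GRCh38, plus strand). Its level was 41.8 and 41.3 CPM in untreated cells, 41.3 and 41.2 after 6 h of DFO, and 40.8 and 41.4 after 6 h of T003. The 24 h levels were 45.5 and 45.0 CPM with DFO and 46.5 and 45.4 with T003. Libraries at 24 h lay above all others, by a margin that was small but larger than the spread within pairs. With T003 TIGIT was 10.6% higher than in untreated cells (log2 change 0.14, SE 0.033, adjusted p = 0.0158). That call was lost without untreated replicate 1 (adjusted p = 0.0705), untreated replicate 2 (0.117), T003 24 h replicate 1 (0.135) or T003 24 h replicate 2 (0.0555). With DFO the log2 change was 0.12 (SE 0.033) and missed the threshold with an adjusted p of 0.0523. It passed with a filter of 1 CPM in 2 libraries (0.0362), DESeq2 (0.0440) and limma-voom (0.0459).

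CD96, the second inhibitory nectin receptor and the most abundant of the set, lies at chr3:111542197-111665996 (GRCh38, plus strand). It stood at 276 and 274 CPM in untreated cells, 295 and 289 after 6 h of DFO and 296 and 298 after 6 h of T003. The values at 24 h were 281 and 281 CPM with DFO and 276 and 286 with T003. The 4 libraries at 6 h were the highest, and the 4 at 24 h lay between them and the untreated libraries, with T003 24 h replicate 1 barely above untreated replicate 1. The log2 change at 6 h was 0.09 with DFO (adjusted p = 0.208) and 0.11 with T003 (adjusted p = 0.335), and DESeq2 called both, with adjusted p of 0.0139 and 0.00164. At 24 h it was 0.03 with each agent, with adjusted p of 0.544 for DFO and 0.447 for T003. CD96 shares its locus with ZBED2 on the opposite strand, at 95 to 224 counts a library, and with the pseudogene NT5C3AP2 on its own strand, at 133 to 218 counts.

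CD226, the activating receptor that competes for the same ligands, lies at chr18:69853274-69961773 (GRCh38, minus strand) and was far less abundant, with 168 to 333 counts a library. Its level was 1.59 and 1.59 CPM in untreated cells, 2.39 and 2.51 after 6 h of DFO, and 2.20 and 1.79 after 6 h of T003. At 24 h it was 2.21 and 1.72 CPM with DFO and 1.94 and 1.35 with T003. Both libraries at 6 h of DFO lay above the others, and the T003 24 h pair lay on either side of the untreated level. The T003 6 h and DFO 24 h pairs lay above the untreated pair. The log2 change with DFO at 6 h was 0.62 (SE 0.192, 95% interval 0.20 to 1.04) and its adjusted p was 0.247. No comparison called CD226. At 24 h its log2 change was 0.30 with DFO (95% interval -0.12 to 0.73) and 0.04 with T003 (95% interval -0.38 to 0.47).

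The windows before the TIGIT and CD96 starts are printed as the pair of inhibitory receptors that bind the same ligands, with the same marking as above.
TIGIT chr3:114293778-114294027: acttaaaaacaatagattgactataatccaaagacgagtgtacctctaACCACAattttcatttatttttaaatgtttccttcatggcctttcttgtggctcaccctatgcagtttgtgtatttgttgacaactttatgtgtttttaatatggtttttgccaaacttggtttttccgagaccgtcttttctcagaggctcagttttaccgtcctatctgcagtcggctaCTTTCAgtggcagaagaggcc
CD96 chr3:111541947-111542196: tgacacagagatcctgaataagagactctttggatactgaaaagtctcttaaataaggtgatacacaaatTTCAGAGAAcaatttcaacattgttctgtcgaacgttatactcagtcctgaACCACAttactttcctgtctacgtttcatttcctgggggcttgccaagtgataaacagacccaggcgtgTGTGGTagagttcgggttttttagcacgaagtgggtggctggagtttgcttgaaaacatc
TIGIT held a RUNX match at 202 and a PRDM1 match at 21 bases before the start. CD96 held RUNX matches at 129 and 60 bases and a STAT match at 180 bases. The ratio of TIGIT to CD226 counts was 26.2 and 25.9 in untreated cells, 17.3 and 16.4 after 6 h of DFO and 18.5 and 23.1 after 6 h of T003. At 24 h it was 20.6 and 26.1 with DFO and 23.9 and 33.8 with T003. The ratio was thus lowest after 6 h of DFO and spread widely within pairs at 24 h, and it was not tested. The ratio of CD96 to TIGIT counts was 6.60 and 6.62 in untreated cells. It was 7.03 to 7.26 in the 4 libraries at 6 h and 5.94 to 6.30 in the 4 at 24 h. The 3 times did not overlap, but this ratio was not tested or compared with those of other genes.

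LAG3, an inhibitory relative of CD4 that binds class II MHC molecules, lies at chr12:6772520-6778455 (GRCh38, plus strand). It was at 8.35 and 6.71 CPM in untreated cells, 6.47 and 6.52 after 6 h of DFO and 6.36 and 6.70 after 6 h of T003. At 24 h it was 7.20 and 7.61 CPM with DFO and 7.14 and 7.37 with T003. All treated libraries lay below untreated replicate 1, and the 4 at 24 h lay between the 2 untreated libraries. LAG3 was called in no comparison, and at 24 h its 95% interval ran from -0.25 to 0.20 with DFO and from -0.28 to 0.18 with T003 on the log2 scale.

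HAVCR2, the gene of the inhibitory receptor TIM-3, lies at chr5:157085832-157109044 (GRCh38, minus strand). Its level was 9.86 and 7.59 CPM in untreated cells, 9.09 and 8.66 after 6 h of DFO and 7.94 and 8.22 after 6 h of T003. Later, at 24 h, it was 9.99 and 10.1 CPM with DFO and 9.98 and 10.6 with T003. The 24 h libraries were above all others, though only slightly above untreated replicate 1. The log2 change at 24 h was 0.20 with DFO (adjusted p = 0.362) and 0.24 with T003 (adjusted p = 0.215), so neither was called. These values turned on the untreated library they were set against. Without untreated replicate 1 they were 0.41 (adjusted p = 0.0426) and 0.44 (adjusted p = 0.0220), and both were called. Without untreated replicate 2 they were 0.03 (adjusted p = 0.952) and 0.06 (adjusted p = 0.842).

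CTLA4, which competes with CD28 for CD80 and CD86, lies at chr2:203867771-203873965 (GRCh38, plus strand) and had 37 to 85 counts a library. Its level was 0.48 and 0.46 CPM in untreated cells and ran from 0.31 to 0.64 in the treated libraries. Both DFO 6 h libraries, at 0.49 and 0.64 CPM, lay above the untreated pair, and the other treated groups overlapped it. CTLA4 was called in no comparison. The 95% intervals at 24 h, -0.55 to 0.77 with DFO and -0.73 to 0.60 with T003 on the log2 scale, span changes of the size seen in LILRB1. Its neighbours on the chromosome, the costimulatory receptors CD28 and ICOS, stood at 22.6 and 21.3 CPM per kilobase, against 0.241 for CTLA4.

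**Figure D3:**
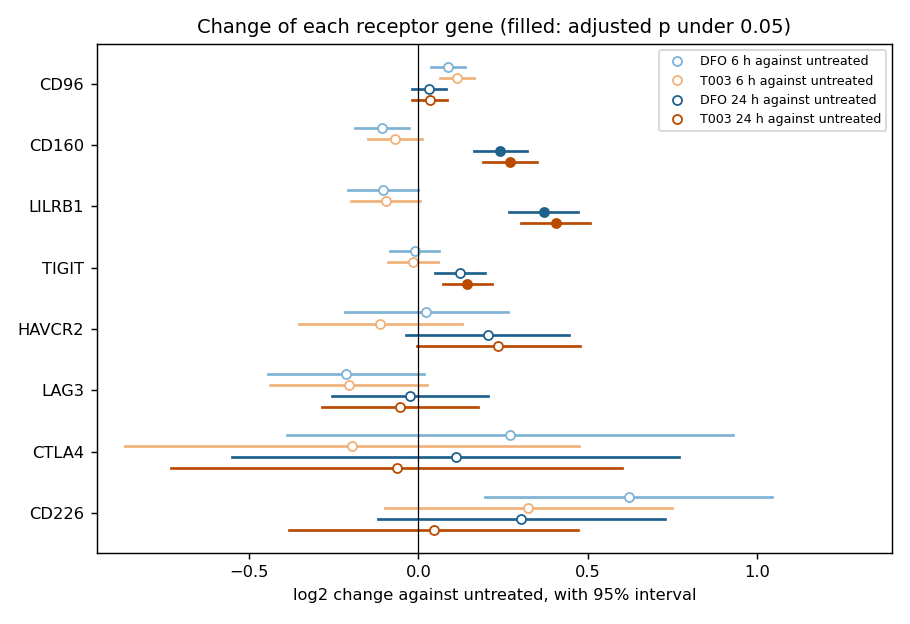
Log2 change of each tested receptor gene against untreated cells for the 2 agents at 6 h and 24 h, with 95% intervals from the fitted model and filled points where the adjusted p was under 0.05. LILRB1 and CD160 lie to the right of 0 at 24 h with both agents, and the intervals of CTLA4 and CD226 are the widest.

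DFO and T003 were next compared at matched times. None of the 8 receptors was called at 6 h, where edgeR called 0% of all genes (0 of 20125, with 1334 at an unadjusted p under 0.05, and 6 by DESeq2), nor at 24 h, where it called 1.34%. At 24 h 0 of the 8 had an unadjusted p under 0.05, against 13.9% of all genes. The difference of DFO from T003 at 24 h was -0.04 for LILRB1 (95% interval -0.14 to 0.07, adjusted p = 0.827) and -0.03 for CD160 (95% interval -0.11 to 0.05, adjusted p = 0.823) on the log2 scale. For TIGIT it was -0.02 (95% interval -0.10 to 0.05) and for CD96 it was below 0.01 in size (95% interval -0.05 to 0.05). CD226 had the broader interval of -0.17 to 0.68. These intervals bound a difference between the agents and do not show that they act alike.

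The 24 h libraries were then compared with the 6 h libraries of the same agent. With DFO 3 of 8 receptors were called higher and 0 lower, against 5.29% and 4.6% of all genes. With T003 3 of 8 were called higher and 1 lower, against 7.55% and 5.93% of all genes. LILRB1 was higher at 24 h by 0.47 with DFO (adjusted p = 0.000105) and 0.50 with T003 (adjusted p = 5.99e-05), and CD160 by 0.35 and 0.34 (both with an adjusted p of 0.000154) on the log2 scale. TIGIT was higher by 0.13 with DFO (adjusted p = 0.0274) and 0.16 with T003 (adjusted p = 0.00865). CD96 fell by 0.08 between 6 h and 24 h of T003 (adjusted p = 0.0407) and was not called with DFO (log2 change -0.06, adjusted p = 0.168).

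The LILRB1 and CD160 calls between the times held without any 1 library, and those of TIGIT and CD96 did not. With DFO the TIGIT call was lost without DFO 6 h replicate 1 (adjusted p = 0.113), DFO 6 h replicate 2 (0.0711), T003 6 h replicate 1 (0.0531), DFO 24 h replicate 1 (0.104) or DFO 24 h replicate 2 (0.0853), and in a model of only the compared groups (0.0694). With T003 it was lost without T003 6 h replicate 1 (adjusted p = 0.0972) or T003 24 h replicate 1 (0.0927). The CD96 call was lost without untreated replicate 2 (0.0589), T003 6 h replicate 1 (0.108) or 2 (0.195), DFO 24 h replicate 1 (0.0591) or 2 (0.0567), or T003 24 h replicate 1 (0.246). It was also lost with the replicate number as a block (0.0608). HAVCR2 was higher at 24 h than at 6 h of T003 by 0.35 on the log2 scale but missed the threshold, with an adjusted p of 0.0605. It passed with the 1 CPM filter (0.0376), DESeq2 (0.0188), limma-voom (0.0477), only the compared groups (0.0331), and without untreated replicate 1 (0.0177) or 2 (0.0164).

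To place these values among genes that act with the receptors, lists of related receptors, ligands, signalling proteins, proteins of surface turnover and transcription factors were read from the same model. At 6 h 0 genes of any of these lists were called with either agent, against 0.0248% of all tested genes with DFO and 0.0298% with T003. For each list below, the shares of all genes at 24 h were 3.43% higher and 3.27% lower with DFO. With T003 they were 7.1% higher and 5.44% lower. The medians of all genes were -0.0023 and -0.0069 on the log2 scale. Of 18 tested related receptors (of 23 listed), 3 were called higher and 1 lower with DFO at 24 h, and 4 higher and 0 lower with T003. The list medians were 0.06 and 0.02 on the log2 scale. Without untreated replicate 2 or without DFO 24 h replicate 2 the 4 calls with DFO became 2.

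CD28, the costimulatory receptor that shares CD80 and CD86 with CTLA4, had the smallest p of the related receptors with both agents. It stood at 98.7 and 95.7 CPM in untreated cells, 116 and 123 after 24 h of DFO and 133 and 135 after 24 h of T003. The 3 groups did not overlap. Its log2 change was 0.30 with DFO (SE 0.032, adjusted p = 0.000277) and 0.46 with T003 (SE 0.032, adjusted p = 1.24e-05). The difference of DFO from T003 was -0.16 (adjusted p = 0.0377), a call that was lost whichever 1 library was left out. ICOS, the neighbouring costimulatory gene, was at 53.5 and 51.9 CPM in untreated cells, 60.2 and 63.4 with DFO and 59.8 and 63.7 with T003 at 24 h. Its log2 change was 0.23 with each agent (adjusted p = 0.00596 and 0.00354), and the DFO call was lost without untreated replicate 2 (0.0700) or DFO 24 h replicate 2 (0.0607).

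KIR2DL4, a killer immunoglobulin-like receptor encoded in the same complex as LILRB1 and LAIR1, rose with T003 at 24 h (log2 change 0.27, adjusted p = 0.0035). It was also called higher with DFO at 24 h (log2 change 0.21, adjusted p = 0.0221). The DFO change ran from 0.15 to 0.29 with 1 library left out. Its call did not hold without either untreated library or without DFO 24 h replicate 2. It was also lost with only the compared groups (adjusted p = 0.0621). CD200R1, the receptor for the inhibitory ligand CD200, fell by 0.32 on the log2 scale with DFO at 24 h (SE 0.051, adjusted p = 0.00376). Its level was 68.9 and 78.9 CPM in untreated cells and 59.7 and 59.0 after 24 h of DFO. With T003 the CD200R1 log2 change was -0.16 and missed the threshold, with an adjusted p of 0.0652. It was called without untreated replicate 1 (-0.26, adjusted p = 0.00211), by DESeq2 (0.0130), with no filter (0.0381) and with the 1 CPM filter (0.0364), and was -0.06 without untreated replicate 2 (0.467).

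Of 19 tested ligands (of 25 listed), 2 were called higher and 0 lower with DFO at 24 h, and 1 higher and 0 lower with T003, with list medians of -0.02 and -0.04 on the log2 scale. The 2 calls with DFO became 0 without untreated replicate 2 and 1 without either DFO 24 h library, and the 1 call with T003 became 2 without untreated replicate 1, DFO 6 h replicate 2 or T003 24 h replicate 1. HLA-E, the class I molecule read by inhibitory and activating NK receptors, rose with T003 at 24 h from 270 and 258 CPM to 332 and 326 (log2 change 0.32, SE 0.030, adjusted p = 8.1e-05). With DFO it was 296 and 304 CPM (log2 change 0.19, adjusted p = 0.00397), a call lost without untreated replicate 2 (0.0622). The nectin ligands themselves were mostly missing from these cells. PVR and NECTIN1 had 0 counts in every library and NECTIN2 at most 5. NECTIN3, a ligand of the same family, stood at 34.0 and 34.1 CPM in untreated cells and was not called at 24 h with DFO (log2 change -0.05) or T003 (log2 change -0.04).

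All 15 signalling genes were tested, and 5 were called higher and 0 lower with DFO at 24 h, and 6 higher and 1 lower with T003, with list medians of 0.09 for each agent on the log2 scale. The count with DFO fell to 1 without untreated replicate 2 or DFO 24 h replicate 1, to 2 without DFO 24 h replicate 2 and to 3 without either T003 24 h library, and the count of 7 with T003 fell to 2 without untreated replicate 2, to 4 without T003 24 h replicate 1 and to 3 without T003 24 h replicate 2. FYN, a Src family kinase of lymphocytes, rose with both agents at 24 h (log2 change 0.18 with DFO, adjusted p = 0.00274, and 0.19 with T003, adjusted p = 0.0012). GRB2, an adaptor recruited by TIGIT, rose with T003 (log2 change 0.14, adjusted p = 0.00248). It was also called higher with DFO (log2 change 0.09, adjusted p = 0.0354). The DFO call was lost without a filter (adjusted p = 0.0620) and with only the compared groups (adjusted p = 0.0927). With 1 library left out the DFO change ran from 0.08 to 0.12. The call did not hold without any 1 of the untreated, DFO 24 h or T003 24 h libraries, or without T003 6 h replicate 1. PTPN6, the phosphatase SHP-1 that inhibitory receptors such as LILRB1 recruit, was at 5.27 and 4.22 CPM in untreated cells, 6.98 and 7.49 after 24 h of DFO and 6.50 and 6.58 after 24 h of T003. Its log2 change was 0.61 with DFO (SE 0.125, adjusted p = 0.0149) and 0.46 with T003 (SE 0.125, adjusted p = 0.0343). Its DFO call was lost without untreated replicate 2 (0.157) or either DFO 24 h library (0.0504 and 0.111). Its T003 call was lost without untreated replicate 2 (0.273), either DFO 24 h library (0.0523 and 0.0509) or either T003 24 h library (0.129 and 0.140), and with the replicate block (0.0503).

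All 9 genes of surface turnover were tested, with 1 called higher with DFO and 3 with T003 at 24 h and 0 lower with either. Its medians were 0.08 and 0.10 on the log2 scale. The 1 call with DFO became 0 without either untreated library or DFO 24 h replicate 2, and 2 without either DFO 6 h library. The 3 calls with T003 became 0 without either untreated library or T003 24 h replicate 1. TRAT1, an adaptor known to promote the transport of CTLA4 to the surface, was at 2.96 and 3.04 CPM in untreated cells, 4.17 and 4.37 after 24 h of DFO and 4.38 and 4.08 after 24 h of T003. Its log2 change was 0.51 with DFO (adjusted p = 0.0123) and 0.50 with T003 (adjusted p = 0.00816). Its DFO call was lost without untreated replicate 1 (0.0739), untreated replicate 2 (0.0895) or DFO 24 h replicate 2 (0.0986). Its T003 call was lost without untreated replicate 1 (0.0587), untreated replicate 2 (0.0566) or T003 24 h replicate 1 (0.0708).

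Of 18 tested transcription factors (of 19 listed), 3 were called higher and 3 lower with DFO at 24 h, and 5 higher and 1 lower with T003, with list medians of 0.05 and 0.07 on the log2 scale. The 6 calls became 3 with DFO without untreated replicate 2 or either DFO 24 h library, and 3 with T003 without untreated replicate 2. PRDM1, the gene of the repressor BLIMP-1, which is known to act at checkpoint receptor genes in T cells, had the smallest p with both agents. It was at 63.7 and 57.0 CPM in untreated cells, 77.7 and 76.5 after 24 h of DFO and 86.8 and 85.3 after 24 h of T003. Its log2 change was 0.35 with DFO (SE 0.044, adjusted p = 0.000849) and 0.51 with T003 (SE 0.044, adjusted p = 4.93e-05). EOMES, a T-box factor of NK cells, fell by 0.19 with DFO (adjusted p = 0.000903) and by 0.11 with T003 (adjusted p = 0.0107) at 24 h on the log2 scale. The T003 call was lost without untreated replicate 2 (0.110), T003 24 h replicate 1 (0.0515) or T003 24 h replicate 2 (0.0871). NFATC2, which acts downstream of calcium signals, fell by 0.20 with DFO (adjusted p = 0.00214) and had a log2 change of -0.04 with T003 (adjusted p = 0.469). IRF4 and TOX2, factors linked to lymphocyte activation and exhaustion, rose with T003 by 0.19 (adjusted p = 0.000545) and 0.39 (adjusted p = 0.00263). TOX2 was also called higher with DFO at 24 h, with a log2 change of 0.28 (adjusted p = 0.0265). That change ran from 0.18 to 0.40 with 1 library left out. The call did not hold without untreated replicate 2 or without either DFO 24 h library. It was also lost with only the compared groups (adjusted p = 0.0687). IRF4 had a log2 change of 0.04 with DFO (adjusted p = 0.356).

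**Figure D4:**
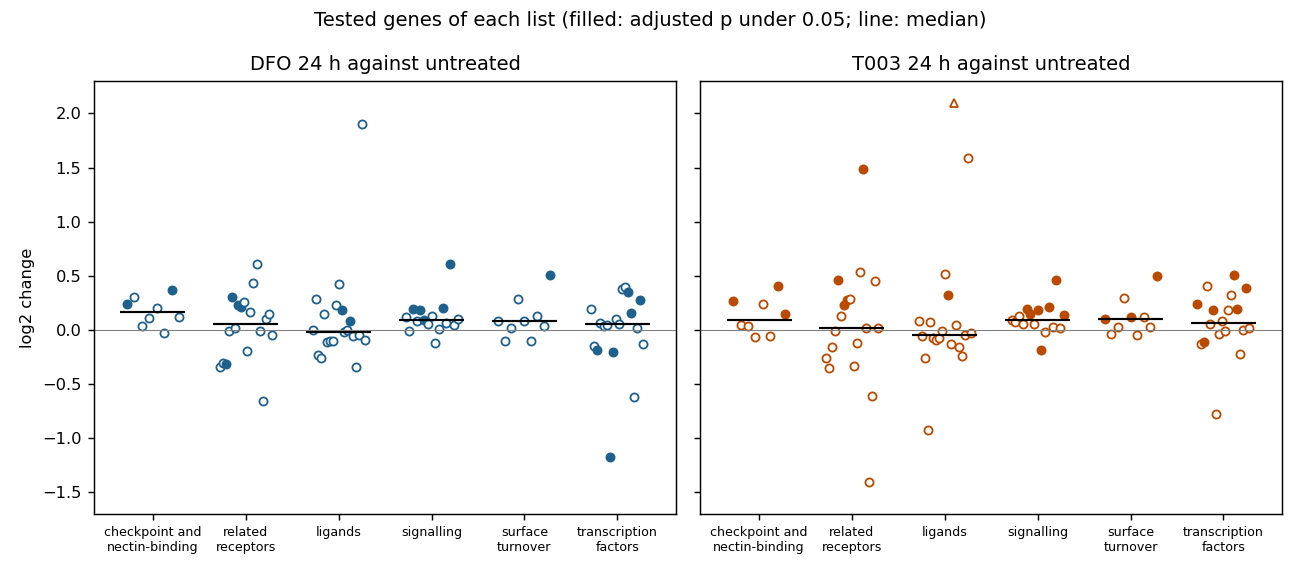
Log2 change of every tested gene of the receptor set and of 5 lists of related genes after 24 h of DFO (left) and T003 (right), with filled points where the adjusted p was under 0.05 and a line at the median of each list. HLA-G, with 0 counts in 7 of the 10 libraries, lies above the axis in the T003 panel and is drawn as a triangle at its upper edge.

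LILRB1 was the called receptor with the largest change with T003 at 24 h, and genes with a like pattern were sought over its 4 log2 changes against untreated cells. Among 10214 genes, ORAI2, a calcium channel subunit, was nearest with a root mean square difference of 0.024 on the log2 scale. CRIM1 followed at 0.028 and the pseudogene RAB43P1 at 0.033. ORAI2 had log2 changes of -0.11 and -0.05 at 6 h and 0.36 and 0.42 at 24 h with DFO and T003, where LILRB1 had -0.10, -0.10, 0.37 and 0.41. These 4 changes share the untreated libraries and the likeness is a description only.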

How the data were processed

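The authors deposited 1 table of estimated counts per gene symbol, in whole numbers and with no normalization. Reads had been trimmed with fastp 0.21.0, aligned to hg38 by HISAT2 2.2.1 and counted by StringTie 2.1.6 on RefSeq genes, as stated in the design text and per the submitters' processing notes. The strand setting was not given in the sources used. The design text names only the 24 h treatment, and the sample labels, which give 6 h and 24 h, were followed. Since separate cultures are not named, p-values describe only the spread between samples, which may be technical.

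All 10 libraries entered 1 edgeR 4.0.16 quasi-likelihood model in R 4.3.3 with group as its only term, TMM scaling (factors 0.991 to 1.01) and filterByExpr with a minimum count of 10, tested on simulated data. P-values were adjusted over 20125 genes. Standard errors were taken from the log2 change and F. Alternatives were RLE scaling, leaving genes unfiltered, a filter of 1 CPM in 2 libraries, DESeq2 1.42.0, limma-voom (limma 3.58.1), the replicate number as a block, only the compared groups, and leaving out each library. The members and the lists of related genes were chosen with earlier results of these data known. All 10 members are described, and from each list up to 3 genes with the smallest p with each agent at 24 h may be named. Sequences come from RefSeq (GRCh38.p14), where 8 of the 10 members matched (not LAG3 and HAVCR2). Transcript lengths come from GENCODE.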

Additional observations from a re-analysis of the deposited data

Results flagged for a closer look

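The change against untreated cells differed between 6 h and 24 h for several receptors, by the test of the 24 h against the 6 h libraries. With DFO the difference on the log2 scale was 0.349 for CD160, 0.474 for LILRB1 and 0.134 for TIGIT. With T003 it was 0.339 for CD160, 0.501 for LILRB1, 0.16 for TIGIT and -0.0808 for CD96. The 6 h and 24 h changes share the untreated libraries, which cancel in this difference.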

How the results depend on the processing

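The number of receptors called kept within 1.5 times its value in 140 of 144 alternatives. The exceptions were 1 receptor, CD96, called by DESeq2 with DFO and with T003 at 6 h, and 2 receptors instead of 4 between 24 h and 6 h of T003 without T003 6 h replicate 1 or T003 24 h replicate 1. With 1 library left out, the count between the times of T003 ran from 2 to 5. Over 1132 alternative values of single receptors 0 reversed a call, 19 calls were lost and 13 were gained, in CD96, HAVCR2 and TIGIT. Where a group kept 1 library, it was assumed to vary like the others.

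Counts over all genes moved more. With 1 library left out they ran from 431 to 1383 for DFO at 24 h (1349 with all), 1084 to 2544 for T003 at 24 h (2524), 14 to 229 between the agents at 24 h (270), 950 to 1824 between the times of DFO (1991) and 1336 to 2739 between the times of T003 (2714). At 6 h they ran from 1 to 11 for DFO (5), 1 to 13 for T003 (6) and 0 to 4 between the agents (0). DESeq2 called 434 and 69 genes for DFO and T003 at 6 h, 878 between the agents at 24 h and 6 at 6 h. With only the compared groups the counts were 851 for DFO at 24 h, 55 between the agents at 24 h, 2 at 6 h and 1293 between the times of DFO. The filter of 1 CPM gave 446 between the agents at 24 h and 2 at 6 h. At 6 h no filter gave 16 for DFO and 2 between the agents, and limma-voom gave 25 and 1. Of the lists at 24 h, the ligands had 4 calls with DFO (2 in the report) under the 1 CPM filter and limma-voom and 5 under DESeq2, and 2 with T003 (1) under the 1 CPM filter and DESeq2. Surface turnover had 2 calls with DFO (1) without a filter, with DESeq2, with limma-voom and with the replicate block, and signalling had 3 with DFO (5) from only the compared groups.

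Same-numbered libraries did not deviate in a common direction. Over 10 pairs of groups the correlation of their deviations ran from -0.344 to 0.325, with 2 above 0.1 and 4 below -0.1. Untreated libraries ran against those of DFO 6 h (-0.265), T003 6 h (-0.273) and DFO 24 h (-0.344). DFO 24 h libraries went with those of DFO 6 h (0.245) and T003 6 h (0.325). What the replicate numbers stand for is not given in the labels. In the fit with a replicate block, 2 receptors were called with DFO and 3 with T003 at 24 h, 3 between the times of each agent, and 0 in the other comparisons. Over all genes the block gave 1185 and 2294 calls for DFO and T003 at 24 h, 117 between the agents at 24 h, 2 and 1 for DFO and T003 at 6 h, and 1 between the agents at 6 h. A block with the numbers of the untreated and T003 24 h libraries exchanged, chosen after seeing the data, gave 1427 and 2567 calls at 24 h for DFO and T003. The receptors with the fewest counts among those tested were CTLA4 and CD226, at 37 to 85 and 168 to 333 counts a library.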
